A study of Mus musculus with 6 samples.

Results

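Pairs of introns that leave the same 5′ splice site (the donor) and end at 3′ splice sites (the acceptors) 4 to 200 bases apart were examined in mouse embryonic stem cells with and without ZRSR2. A pair was kept where both introns lay on an autosome and their deposited spliced read counts summed to at least 30 over the 6 libraries. This left 145 pairs, made of 289 introns on 143 donors, out of 6260 pairs with a shared donor and that total among 219945 listed introns. The 2 pairs of Ankrd23 share a donor, as do those of Gnb2. The nearer acceptor is called proximal here and the farther one distal. In 141 genes, 144 pairs lay within a RefSeq gene by position.

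The study compared 3 libraries of wild-type ES cells with 3 of ZRSR2 knockout ES cells, all from the line VGB6, which the titles number P2, P3 and P5 in each group without saying what the P stands for. ES cells are pluripotent cells grown from the early embryo. The labels name no other treatment, do not say whether the knockout is 1 clone, and do not say whether the numbers stand for separate cultures, so that a p-value weighs a difference only against how far these libraries vary. PolyA-selected RNA was sequenced, and reads across each intron were counted.

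An intron is removed by joining its donor to an acceptor, and the acceptor is recognised by a complex of proteins that read the polypyrimidine tract and the AG dinucleotide at its end. ZRSR2 is a relative of U2AF1, the protein that contacts that AG in most introns. It is known for its part in recognising the acceptor of U12-type introns, a rare class removed by the minor spliceosome. A donor with several acceptors may join either, and if an exon lies between the acceptors, the choice of the distal one leaves that exon out of the mRNA. Exons of a few codons, called microexons, are known mainly from neurons.

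The deposited spliced counts were nested. Of 25884 pairs of introns in which one lay within the other on the same strand, 22749 had reads at the longer intron and so could show otherwise. The count of the shorter intron was below that of the longer one in 0 pairs in any of the 6 libraries. The same held on opposite strands, with 0 of 7219 pairs, 5700 of them with reads at the longer intron, so reads of a gene and of an antisense partner cannot be told apart here. The counts are therefore read here as reads whose gap covers the intron, which is an inference from the values. A read that joins the donor to the distal acceptor is then counted at both introns of a pair, and a share of the 2 counts as deposited could not pass 50%. The distal share below is the count of the distal intron divided by the count of the proximal one, and the difference between them is called proximal-only reads. Reads of longer or overlapping gaps may sit in both counts, and how many do was not tested.

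**Figure D1:**
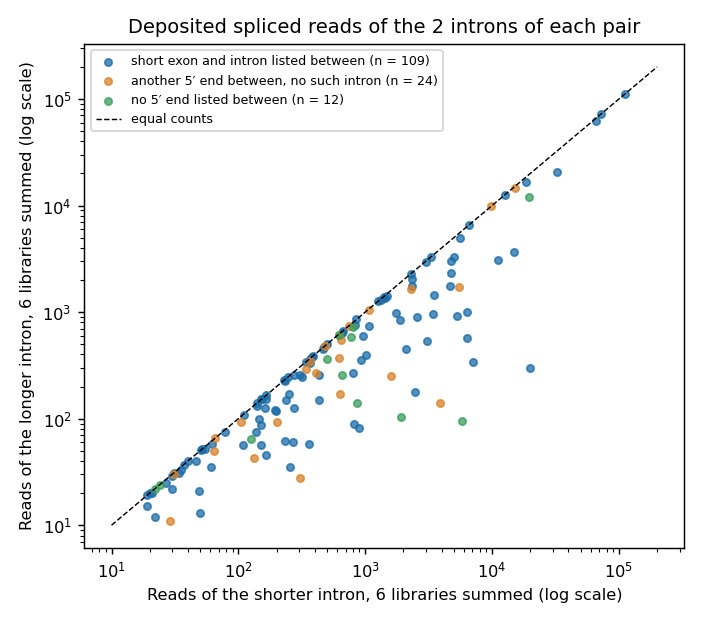
Deposited spliced reads of the shorter (proximal) intron of each of the 145 pairs on the x axis against those of the longer (distal) intron on the y axis, summed over the 6 libraries, both on log scales; colours give what is listed between the acceptors and the dashed line marks equal counts. All points lie on or below the line.

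The introns listed between the acceptors changed what most of these pairs are. In 109 of 145 pairs another listed intron began after the proximal acceptor and ended at the distal one, so that the pair encloses a short exon, and the distal acceptor stands for skipping it. In 24 pairs another 5′ end was listed between the acceptors but no intron from it to the distal acceptor. Several of these genes are known for mutually exclusive exons, among them Rab6a, Acp1, Acsl1, Acsl6, Mef2a, Mef2d and P4ha2. Only 12 pairs had no 5′ end listed between the acceptors, the structure that the name alternative acceptor usually describes. The acceptors lay 5 to 200 bases apart, with a median of 155, and 48 of the 145 distances were a multiple of 3. The only pair under 51 bases apart was 5 bases apart, and its counts were equal in every library, as were those of all 18 autosomal pairs 1 to 2 bases apart. Whether the counting separates acceptors this close could not be determined.

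The deposited tables name introns by position only, so the splice sites that RefSeq windows around gene starts (GRCm38.p6, the build named mm10 elsewhere) happened to hold are shown, to place the donor and acceptor of a pair. The donors of Eif5a and Pnpla6 are written with 10 exon bases, the first 10 intron bases in capitals and 10 more intron bases. The distal acceptor of Pnpla6 is written with its AG in capitals, followed by 10 exon bases.
Eif5a donor: ttcgcgcgagGTGAGAGCGGgcagggcgcg
Pnpla6 donor: ctgattccggGTAGGTCCCGactttttgat
Pnpla6 distal acceptor: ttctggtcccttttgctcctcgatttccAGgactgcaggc
The Eif5a donor intron starts at position 69921162 of chromosome 11, on the minus strand, and that of Pnpla6 at position 3515557 of chromosome 8, on the plus strand. Both donors open with GT, and the Pnpla6 acceptor is preceded by a run rich in pyrimidines. Over all listed introns whose sites fell in such a window, GT stood at 1375 of 1398 donors and AG at 1244 of 1251 acceptors. Other sites of the members were not read, and none was typed as U12 or U2.

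Summed over all listed introns, the spliced counts of the 6 libraries came to 19801687 to 63623214, and wild-type library 2 was the shallowest. Because the counts are nested, a read can enter this sum and those below at several introns, so they are not numbers of separate reads. Spliced counts over the 9 introns of Zrsr2 summed to 660, 2190 and 2129 in wild-type libraries 2, 3 and 5. They summed to 33, 12 and 0 in the knockout libraries, lower in every knockout library than in any wild-type one. All 10 ES cell markers had reads in every library and summed to 2639 to 3494 CPM (spliced counts scaled to each library's summed count). A list of 10 fibroblast or feeder genes summed to 927 to 1521 CPM, mostly from Fn1 and Sparc, with Lum at 0 in 4 libraries. Of these, Col1a1 ranged from 17.1 CPM in knockout library 5 to 130 in knockout library 2, and from 35.2 to 118 in wild type. In both groups Col1a1, Col1a2, Col3a1 and Postn were highest in library 2 and lowest in library 5. Col3a1 was at 33.8, 6.69 and 2.48 CPM in wild type and 26.5, 12.3 and 0.593 in knockout. Others of the list did not keep that order in both groups. Fn1 was lowest in library 2 in knockout, at 696, 852 and 711 CPM. Sparc was highest in library 3 in wild type, at 215, 272 and 231 CPM, and so were Thy1 and Acta2. Dcn was highest in library 3 in knockout. The part of such cells in any result below was not tested.

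Most pairs used the distal acceptor. The median distal share over the 145 pairs was 78.9%, with 65 pairs at 90% or more and 9 under 10%. Over all 6260 pairs with a shared donor the median was 66.0%, with 2199 at 90% or more. It was 87.0% over the 109 pairs here with an enclosed exon, against 76.3% over 2174 other autosomal pairs with one of at most 121 bases. In 23 of the 145 pairs no proximal-only read was seen in any library, against 661 of the 6260. The proximal introns of the pairs carried a median of 34 to 126 reads per library, and the least covered pair had 19 reads over all 6, since the deposited total counts distal reads at both introns. The pairs nearest the limit of 30 had totals of 34 inside it and 28 outside it, and the nearest pair beyond 200 bases was 202 bases apart.

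**Figure D2:**
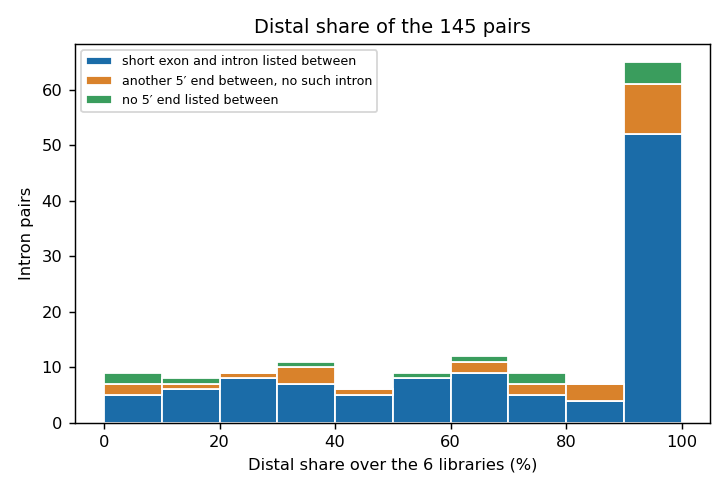
Number of the 145 intron pairs (y axis) by their distal share over the 6 libraries in percent (x axis, bins of 10 points), with colours for what is listed between the acceptors. The top bin holds 65 pairs, and the other 9 bins hold 6 to 12 each.

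Where an exon was enclosed, its length went with how often it was skipped. The 109 enclosed exons were 3 to 121 bases long, with a median of 57, and the inner introns after them 39 to 182 bases, with a median of 99. In the 25 pairs with an exon of at most 27 bases, the median share of reads skipping it was 99.7%. It was 78.4% in the 34 pairs with 28 to 60 bases and 49.3% in the 50 pairs with more. These limits on length were set after the shares were seen, and a very short exon may be hard for an aligner to place, the part of which was not tested. The enclosed exon was a multiple of 3 in 78 of 109 pairs (71.6%), against 71.2% of 2174 other autosomal pairs with an enclosed exon of at most 121 bases, so this was no feature of the members alone. Among the 25 shortest exons, 23 were a multiple of 3.

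**Figure D3:**
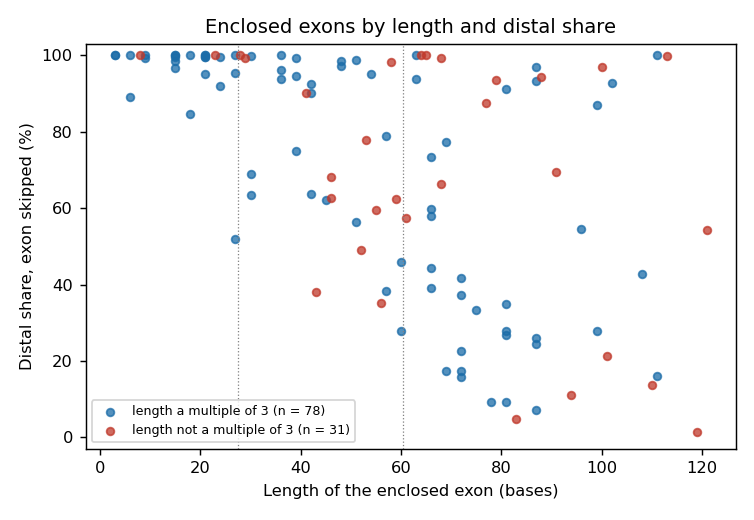
Length of the enclosed exon in bases (x axis) against the distal share over the 6 libraries in percent (y axis) for the 109 pairs that enclose one, with blue for lengths that are a multiple of 3 and red for others. Exons left of the first dotted line (up to 27 bases) lie between 51.9% and 100%, and those right of the second (over 60 bases) between 1.51% and 100%.

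The shortest exons, of 3 bases, lay in Mon2, a regulator of membrane traffic, and Cdh23, a cadherin of hair cells, with no proximal-only read in 473 and 19 reads. A count of 0 allows up to 0.634% of counted reads from this donor to join the proximal acceptor in Mon2 and up to 15.8% in Cdh23, counting error only. These are not limits on inclusion of the exon, since reads that an aligner could not place across 3 bases would be missing from the counts. Whether such reads were lost was not tested. Ap2m1, the medium subunit of the AP-2 clathrin adaptor, was the best covered of the short exons, with 6 bases. Its distal share was 91.5%, 90.1% and 88.4% in wild-type libraries 2, 3 and 5 and 89.8%, 88.0% and 88.1% in knockout ones, with the 6 bases kept in the other reads, and the groups overlapped. The 18-base exon of Atp6v0a1, a subunit of the vacuolar proton pump, had no proximal-only read in 852. That count of 0 allows up to 0.352% of reads from this donor to join the proximal acceptor, but by the reads over its inner intron the share skipping the exon was 90.4%. In Stat4, a cytokine-activated transcription factor, the share with an 18-base exon skipped ran from 72.7% to 94.6% in wild type and from 81.6% to 93.3% in knockout. The lowest share of the class was that of Ager, a receptor of the immunoglobulin family, at 51.9% of 108 reads. These genes were chosen after their values were seen.

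The largest counts came from Eif5a, a translation factor, with 112489 reads over its proximal intron and 53 proximal-only reads. Its distal share was 99.9% to 100% in every library. Hnrnpa2b1, an RNA-binding protein that regulates splicing, was the only member gene in the 10 fixed gene lists. Its enclosed exon of 36 bases, at chromosome 6 with introns from 51467427 and 51467296 to 51469670, has the length of the exon known to distinguish the B1 form from the more abundant A2 form. The exon was skipped in 93.8%, 93.6% and 94.4% of reads in wild type and in 94.0%, 93.7% and 94.2% in knockout, on 65564 reads. The groups overlapped, and the log2 odds of distal against proximal-only reads differed by 0.0099 ± 0.13 (SE; edgeR quasi-likelihood test, adjusted p = 0.999). None of the 13 minor spliceosome genes, the 30 genes listed for a U12-type intron, the 17 factors of acceptor recognition or the 25 pluripotency genes had a member pair.

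Some widely expressed genes had reads at both acceptors, in very different proportions. Hmgn1, a nucleosome-binding protein, skipped a 30-base exon in 64.7%, 62.7% and 64.4% of reads in wild type and 64.5%, 61.6% and 61.6% in knockout, out of 32747 reads. Lsm4, a core protein of U6 snRNP, rarely skipped its 119-base exon, at 0.8% to 2.1% in wild type and 1.5% to 1.7% in knockout. Gas5, a noncoding host of small nucleolar RNAs, used the distal acceptor for 88.4% to 90.8% of reads in wild type and 90.2% to 91.6% in knockout. Nras, a small GTPase, was at 66.0%, 64.5% and 63.9% in wild type and 62.3%, 62.5% and 64.1% in knockout. The groups of each of these 4 genes, named after their values were seen, overlapped.

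Of the 6 best covered pairs with 40% to 60% of reads at the distal acceptor, 5 had overlapping groups. Dnajc19, a part of the mitochondrial import motor, stood at 47.9%, 49.6% and 50.4% in wild type and 48.0%, 48.7% and 49.3% in knockout. Hsf1, the main factor of the heat shock response, stood at 38.6%, 46.8% and 40.6% against 45.0%, 47.4% and 45.7%. Trim33, a ubiquitin ligase of the TGF-beta pathway, stood at 59.0%, 57.6% and 54.5% against 54.3%, 59.8% and 56.0%. Atxn1l, a transcriptional co-repressor, ranged from 52.2% to 64.8% in wild type and 54.9% to 59.4% in knockout, and Tmem54, a membrane protein, from 36.2% to 49.3% and 46.3% to 54.8%. Their adjusted p ranged from 0.901 (Hsf1 and Tmem54) to 0.999 (Trim33) by edgeR's quasi-likelihood test. The sixth, Med25, follows with the pairs of smallest p.

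To ask whether loss of ZRSR2 moved the use of the distal acceptor, distal and proximal-only reads of every pair with at least 10 of each were compared between genotypes with edgeR's quasi-likelihood test. Of 4166 pairs tested, 1 passed an adjusted p of 0.05 (0.024%), and 0 members did. Of the 145 members, 44 had fewer than 10 proximal-only reads and were not tested. The smallest adjusted p of a member was 0.756. At an unadjusted p under 0.05 there were 7 members, 6 higher and 1 lower in the knockout, against 6.12% of all pairs, 3.65% higher and 2.47% lower. DESeq2 called 0 members, with 1 at an unadjusted p under 0.05, and limma called 0, with 6. Data were also simulated at the same depth, with a spread between libraries that was set and not estimated from these data. In them the test found 5 of 100 pairs whose odds were changed 2-fold and 44 of 100 changed 4-fold. Changes of 2-fold were thus mostly missed at that spread. What share of such changes would be found in the real pairs was not tested.

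The median log2 odds of the members tested was 0.22, against 0.07 over all pairs tested, and 69 members were above 0 and 32 below, against 55.1% of all pairs above 0. Among 108 members with at least 10 reads in every library, the distal shares of the groups did not overlap in 15, with 8 higher and 7 lower in the knockout. That was 13.9%, against 11.4% of all such pairs (6.46% higher and 4.99% lower). The other 37 members were too shallow for this count.

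The 10 members of smallest p whose groups did not overlap are given by rule, and none passed the adjusted threshold. Med25, a subunit of the Mediator complex, encloses a 72-base exon on chromosome 7, with introns from 44880639 and 44880471 to 44880922. The exon was skipped in 31.5%, 39.2% and 36.9% of reads in wild type (35.9% ± 4.0, SD, n = 3) and in 43.8%, 53.0% and 46.1% in knockout (47.6% ± 4.8, SD, n = 3). All 3 knockout libraries lay above all 3 wild-type ones, with a log2 odds difference of 0.68 ± 0.25 (SE; edgeR adjusted p = 0.756). Over 15 settings of the analysis the difference ranged from 0.33 to 0.80, and the smallest adjusted p was 0.324.

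Acadvl, a mitochondrial dehydrogenase of very long fatty acids, skipped a 66-base exon on chromosome 11 in 28.4%, 38.9% and 30.4% of reads in wild type and in 47.4%, 41.7% and 48.6% in knockout. The log2 odds difference was 0.81 ± 0.31 (SE; edgeR adjusted p = 0.756). Ankrd23, an ankyrin repeat protein, had few reads, 165 over the proximal intron, and skipped its 99-base exon in 27.3%, 27.3% and 9.4% against 34.3%, 53.8% and 33.3%. Both were higher in every knockout library than in any wild-type one.

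Yif1a, a protein of transport between the endoplasmic reticulum and the Golgi, skipped a 94-base exon in 10.9%, 12.1% and 5.0% of reads in wild type and in 12.3%, 15% and 17.6% in knockout. Atrip, the partner of the DNA damage kinase ATR, stood at 21.4%, 25% and 17.3% against 29.9%, 63.6% and 30%, on 232 reads. Knockout library 3 stood apart from the other 2, but its value rests on 11 reads over the proximal intron. Thbs3, a thrombospondin of the extracellular matrix, was lower in the knockout, with a 111-base exon skipped in 18.8%, 20% and 22.1% against 11.3%, 12.2% and 14%. The edgeR adjusted p of all 3 was 0.792 to 0.795.

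Riox2, a ribosomal oxygenase, was the only one of the 10 with no 5′ end listed between its acceptors, which lay 145 bases apart on chromosome 16, at 59489344 and 59489489. Its distal acceptor took 4.1%, 4.8% and 3.8% of reads in wild type and 6.3%, 5.8% and 7.0% in knockout, on 1925 reads. Acsl6, a fatty acid activating enzyme, Crnde, a long noncoding RNA, and Ubr2, a ubiquitin ligase, had another 5′ end between their acceptors. Acsl6 stood at 88.9%, 81.2% and 86.7% in wild type and 94.7%, 100% and 100% in knockout, on 104 reads. With fewer than 10 reads in some library, Acsl6 was outside the count of non-overlapping members above. Crnde stood at 69.2%, 48.5% and 58.3% against 48.4%, 32.3% and 30.4%, on 200 reads, and the nearest libraries of its groups were almost level. Ubr2 stood at 62.7%, 63.4% and 65.7% against 55.7%, 58.7% and 52.1%. For these 4 genes the edgeR adjusted p was 0.792 to 0.798.

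**Figure D4:**
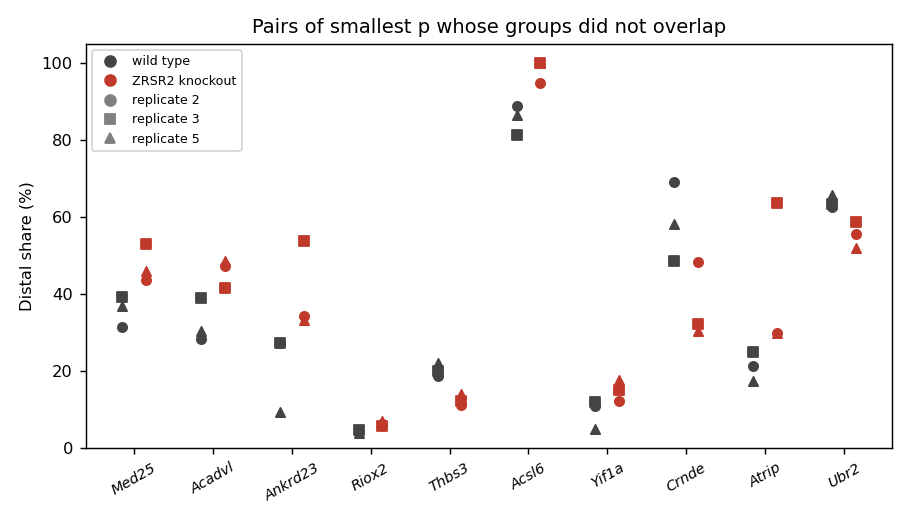
Distal share in percent (y axis) in each library for the 10 pairs of smallest p whose groups did not overlap (x axis), with grey for wild type, red for ZRSR2 knockout and a marker shape per replicate number. The pairs were chosen for separated groups, and none passed the adjusted threshold.

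Tead1, a transcription factor of the Hippo pathway, was the 1 member lower at an unadjusted p under 0.05, but its groups overlapped, at 92.2%, 96.2% and 96.6% in wild type and 89.7%, 88.9% and 94.1% in knockout. Rpp21, a subunit of ribonuclease P, was among the 6 higher ones, at 11.1%, 23.1% and 13.3% against 29.1%, 25.7% and 20.7%, and its groups overlapped too. Asgr1 and Col20a1, also among the 6, rested on 165 and 22 reads.

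Averaged over the 108 members with at least 10 reads in every library, the distal share came to 63.2%, 64.5% and 63.0% in the wild-type libraries and to 63.9%, 65.0% and 65.1% in the knockout ones. The difference of 1.08 points was not beyond the spread of the libraries (two-sided exact permutation test, p = 0.2, where 3 against 3 cannot go below 0.1), and was 0.407 with reads pooled over pairs. Against autosomal pairs more than 200 bases apart, the members' mean moved by 0.766 points more (exact permutation p = 0.3), by 1.25 without knockout library 2 and by 0.361 with pooled reads. The 18 pairs 1 to 2 bases apart were all at 100% in every library, so that they offer no comparison. Over the pooled reads of the 108 members, the less used acceptor took 10.5% ± 0.44 in wild type and 10.9% ± 0.36 in knockout (SD, n = 3; exact permutation p = 0.4). That difference of 0.354 points was 0.108 without wild-type library 2, 0.189 without knockout library 3, 0.540 without wild-type library 3 and 0.548 without knockout library 2.

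By what lies between the acceptors, the means went in different directions. Over the 80 pairs with an enclosed exon the knockout mean was 1.94 points higher (exact permutation p = 0.2), and 0.607 with pooled reads. Over the 19 with another 5′ end but no such intron, it was 2.47 points lower, at 65.2%, 64.8% and 65.8% in wild type and 63.7%, 63.2% and 61.4% in knockout, and the groups did not overlap. That p of 0.1 is the smallest the exact permutation test can give, and 0.3 after adjustment over the 9 classes added after the data were seen. With pooled reads the difference was -2.59 points (exact permutation p = 0.3). Each pair had equal weight in the mean, and Crnde, which fell far on 200 reads over its proximal intron, is among the 19. How much of the difference Crnde carried was not tested. Also among the 19, Rab6a, a GTPase of the Golgi, stood at 69.4%, 74.7% and 75.5% in wild type and 66.1%, 69.7% and 70.5% in knockout. Acp1, a small tyrosine phosphatase, stood at 28.6%, 31.7% and 38.0% against 27%, 31.4% and 29.7%. The groups of both overlapped.

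Over the 9 pairs with no 5′ end between, the mean was 0.834 points higher in the knockout (exact permutation p = 0.6). It was 0.230 without knockout library 3, 0.406 without wild-type library 2, 0.490 without knockout library 5, 1.501 without wild-type library 3, 1.78 without knockout library 2 and 1.70 with pooled reads. The best covered of these, Ppp1r14b, an inhibitor of protein phosphatase, had its acceptors 57 bases apart on chromosome 19, at 6976857 and 6976914. Its distal share stood at 59.7%, 63.1% and 61.6% in wild type against 63.3%, 60.1% and 61.7% in knockout, with overlapping groups, on 19458 reads. At Ndufb8, a subunit of respiratory complex I, the distal acceptor took 1.63% of 5814 reads over all libraries, and at Adrb3, a beta-adrenergic receptor, 90.9% of 799.

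By length of the enclosed exon, the knockout mean was 0.833 points higher for exons of at most 27 bases, with groups that did not overlap (97.3% ± 0.37 against 98.1% ± 0.36, SD, n = 3, exact permutation p = 0.1, adjusted 0.3). For 28 to 60 bases it was 1.19 points higher (exact permutation p = 0.7), but -0.118 without knockout library 5, 1.88 without knockout library 3, 1.80 without knockout library 2 and 0.523 with pooled reads, and for longer exons 3.18 points higher (exact permutation p = 0.2). With reads pooled over pairs, the difference turned to -0.280 points for the shortest exons and -0.294 for the longest. By distance, it was -0.715 points for the 7 pairs 51 to 100 bases apart, -1.11 without knockout library 2, -0.286 without knockout library 3 and 0.102 with pooled reads. For the pairs over 100 bases apart it was 1.20, and 0.421 with pooled reads. By reading frame, it was 0.202 points where the distance was a multiple of 3 and 1.43 where it was not (0.472 and 0.328 with pooled reads). With 1 library left out, the former ranged from -0.310 (without wild-type library 2) to 0.579 (without wild-type library 3), and was -0.0201 without knockout library 5, 0.337 without wild-type library 5 and 0.351 without knockout library 3. The smallest p of the 4 classes by distance and reading frame was 0.2 by exact permutation, 0.4 after adjustment.

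**Figure D5:**
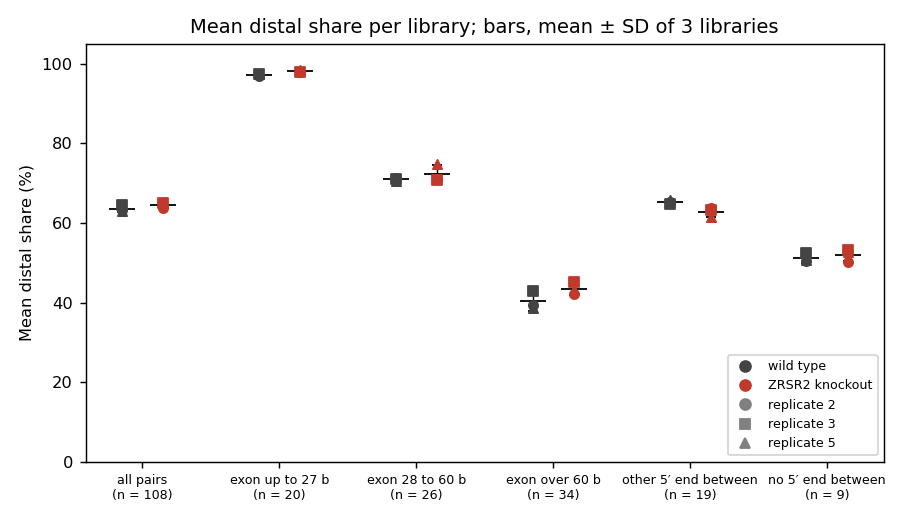
Mean distal share in percent (y axis) of each library over all 108 pairs with at least 10 reads in every library and over 5 classes of them (x axis), with grey for wild type, red for knockout, a marker shape per replicate number, and bars for the mean and SD of 3 libraries. The groups did not overlap for exons up to 27 bases and for pairs with another 5′ end between.

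Retention of the member introns compares reads across the exon-intron borders with spliced reads. The choice of pairs did not use the border reads, but it used the spliced ones. Over 95371 introns whose border and spliced reads came to 20 or more in each library, edgeR's quasi-likelihood test called 26 (0.0273%), and 0 of 171 member introns. At an unadjusted p under 0.05 there were 6 member introns, against 4.14% of all, and DESeq2 called 0, with 1 at an unadjusted p under 0.05. The median deposited retention of member introns was 2.35% to 3.23% over the 6 libraries, against 0.844% to 1.08% over all introns tested. Most longer introns of a pair hold a short exon, whose part in these values was not tested. The distal introns were at 3.73% to 4.56% and the proximal ones at 1.66% to 2.50%. Because the counts are nested, the distal intron of a pair never has more spliced reads than the proximal one. The same border reads thus give it an equal or higher percentage. In wild-type library 2, Lsm4 had 37 border reads on 1263 spliced ones at its proximal intron (1.44%). At its distal intron it had 31 on 10 (60.8%). The distal and proximal percentages therefore do not compare retention alone. How far this raised the members' median was not tested. The 6 member introns at an unadjusted p under 0.05, the distal introns of Git2, Nras, Ppp1r14b, Srp19 and Stard4 and the proximal one of Nras, all had a log2 odds below 0, and none passed the test (edgeR adjusted p = 1). Both Nras introns share a donor and nested spliced reads, so they are not separate. Of the 171 member introns, 91 were below 0 and 80 above, against 46846 and 48525 of all introns tested. How many of all introns at that unadjusted p were below 0 was not counted. Git2, an adaptor that regulates ARF GTPases, had the smallest p, with its distal intron at 8.70%, 1.75% and 1.90% in wild type and 0.709%, 0% and 0% in knockout. These rest on 8, 4 and 7 border reads against 2, 0 and 0, and those of Stard4 on 2, 4 and 0 against 0, 0 and 0. The distal intron of Nras stood at 2.11%, 2.67% and 2.36% against 1.63%, 1.16% and 0.777%, while the groups of its proximal intron overlapped, at 0.879%, 2.01% and 1.69% against 1.07%, 0.545% and 1.13%.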

How the data were processed

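Each library's table lists introns of the mouse build mm10 (per the submitters' processing notes) with deposited counts of reads at both borders and of spliced reads, a fraction of the intron covered, which was not used, and a retention value in percent. Per the file headers these carry no further explanation, and the sources used here do not give the aligner or strand use. The deposited percent equalled 100 times the mean border count over that mean plus the spliced count, within 0.01 points, in all 1319670 values. Starts were read as counted from 0, checked on splice site letters.

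Because the spliced counts were nested, proximal-only and distal reads entered the test in place of the 2 counts as deposited; this was changed after the nesting was seen, and the counts as deposited are an alternative. edgeR 4.0.16 (quasi-likelihood, with a term per library) tested pairs with at least 10 reads of both kinds, adjusted by Benjamini-Hochberg over all pairs at 0.05. DESeq2 1.42.0 and limma 3.58.1 (0.5 added to both counts) were alternatives, in R 4.3.3. Mean shares weighted pairs equally and were tested by exact permutation over libraries. The edgeR step was tested on simulated data of 4166 pairs, with a set spread between libraries. Replicates differed beyond sampling noise (3.43 to 13.8 chi-square per intron).

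The members, the gene lists (recalled from memory) and the tests were chosen with earlier results of these data known; classes by enclosed exon were added after the data were seen. Pairs were named by rule: the 10 of smallest p with groups that do not overlap, the 6 best covered with 40% to 60% distal reads, and the best covered of each list. Others were named after their values were seen. Gene names come from RefSeq positions, chosen among several genes for 6 pairs. Intervals and limits cover counting error only.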

Additional observations from a re-analysis of the deposited data

How the results depend on the processing

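No member was called under any of 15 settings of the test (tool, size factors, read minimum, pairs per donor, a library left out, replicate block, counts as deposited). The count at an unadjusted p under 0.05 ranged from 1 to 12 and the smallest adjusted p from 0.263 to 1. The mean distal share stayed 0.407 to 1.94 points higher in the knockout, and 0.798 to 1.55 with 1 library left out, except over the 28 pairs with no enclosed exon, where it was -1.41 points (exact permutation p = 0.1). Pooled reads reversed 4 classes, to 0.102 points for pairs 51 to 100 bases apart, -0.834 for exons not a multiple of 3, -0.280 for exons up to 27 bases and -0.294 for exons over 60 bases. Where the distance was a multiple of 3, the difference was -0.310 without wild-type library 2 and -0.0201 without knockout library 5, in a range up to 0.579 (without wild-type library 3). For exons of 28 to 60 bases it was -0.118 without knockout library 5, in a range up to 1.88 (without knockout library 3). Trim33 and Hnrnpa2b1 changed sign near 0, with ranges of -0.10 to 0.062 and -0.035 to 0.070 in log2 odds: Trim33 was at 0.038, 0.013, 0.062 and 0.0089 with a library left out and at 3.1e-05 with the counts as deposited, and Hnrnpa2b1 at -0.0056, -0.035 and -0.020 with a library left out. The causes were not tested. Same-numbered libraries of the 2 groups correlated at 0.048, 0.069 and 0.053 in their deviations, under the 0.1 set for pairing, although each correlated best with its own number. With the replicate block 0 members were called, 12 had an unadjusted p under 0.05 against 7 without it, and the mean share had an exact p of 0.25, the smallest that 3 pairs allow. The replicate block also left 0 member introns called for retention. Of simulated pairs with at least 100 reads of both kinds, 4 of 40 changed 2-fold and 34 of 39 changed 4-fold were found. At any depth it was 5 of 100 and 44 of 100. These counts hold for the set spread of the simulation. How far depth or the spread of the libraries limits the test was not separated.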

Other observations

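The inner intron gives a further estimate of skipping for pairs with an enclosed exon, since its reads also hold those of the distal gap. Over 102 pairs with both estimates, 89 lay within 10 points of each other, and 13 differed by more, 9 of them with the inner intron giving the lower value. Atp6v0a1, which lay within the 10 points, was at 100% by its proximal intron and at 90.4% by its inner one. By the inner intron, the mean share over 83 pairs was 61.0% ± 1.1 in wild type and 62.7% ± 0.38 in knockout (SD, n = 3). Those groups did not overlap (exact permutation p = 0.1, the smallest that 3 against 3 allows, 0.3 after adjustment over 9 classes).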
